A study of Mus musculus with 12 samples.

Results

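Messenger RNA levels of 10 genes that write, copy, remove or back up chromatin silencing marks were followed in cultured mouse mammary epithelial cells: Dnmt1, Uhrf1, Dnmt3a and Dnmt3b, Tet1, Tet2 and Tet3, and Ezh2, Suz12 and Eed. They were chosen by name, as the DNA methyltransferases with their partner Uhrf1, the TET dioxygenases and the core subunits of Polycomb repressive complex 2 (PRC2). All 10 were found by symbol among the 28427 gene rows deposited, and all 10 passed the filter on low counts that left 13951 genes. The cells came from C57BL/6 mice and were sequenced in 12 RNA libraries, 3 for each of 4 groups. The groups were spheroids at 96 h, monolayers at 96 h, spheroids at 48 h and monolayers at 48 h of culture. Spheroids grew inside gels of growth factor-reduced Matrigel, a basement membrane extract, and monolayers grew on dishes coated with collagen. No group carried a genetic change, and all received the same basal medium with progesterone and prolactin. Format and matrix changed together, and a medium change after 48 h is described for the gels, so these parts of a difference cannot be told apart. The study calls its replicates biological without saying that each was a separate animal, so p-values measure the spread between these cultures.

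DNA methylation is copied to the new strand after replication by Dnmt1, which Uhrf1 guides to half-methylated sites, and it is laid down anew by Dnmt3a and Dnmt3b. The Tet enzymes oxidise methylated cytosine as a step towards its removal. PRC2, in which Ezh2 is the catalytic subunit and Suz12 and Eed are needed for activity, methylates histone H3 at genes kept silent. In the mammary gland, Ezh2 and Dnmt1 are known for roles in progenitor cells.

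Library totals lay between 7674105 and 13554497 counts. The leading principal component carried 59.6% of the variance. No pair of replicates was as close as counting noise alone would make it: the chi-square statistic per degree of freedom ran between 2.41 and 17.2, highest for replicates 1 and 3 of the 48 h monolayers. In the reference annotation, 7 of the 10 genes (Dnmt3a, Dnmt3b, Tet2, Tet3, Ezh2, Suz12 and Eed) overlap a gene on the opposite strand, and no source used here gives a strand setting, so their counts could hold reads of that neighbour. Of 12 luminal and 8 basal or myoepithelial markers, none was at 0 in any group. The summed luminal markers stood at 7070 to 7290 CPM in 96 h spheroids, 4470 to 4810 CPM in 96 h monolayers, 7340 to 7680 CPM in 48 h spheroids and 9790 to 11300 CPM in 48 h monolayers, where CPM is a gene's counts scaled to a common library size after TMM adjustment. The sum is carried by a few keratins, such as Krt8 at 2150 ± 116 CPM in 48 h spheroids and 4250 ± 299 CPM in 48 h monolayers (SD, n = 3 each). By gene, 11 of the 12 luminal markers rose in spheroids and none fell at 96 h in edgeR's test, and 8 rose and 4 fell at 48 h (median log2 changes 1.46 and 0.71). That test called 37.3% of all tested genes higher and 36.5% lower at 96 h, and 31.6% and 26.4% at 48 h. Elf5, a factor of luminal progenitors, stood at 142 ± 3.9 CPM in 48 h spheroids and 6.17 ± 0.254 CPM in 48 h monolayers (SD, n = 3 each).

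Among the 10 genes, the largest differences with culture format were in the pair that copies DNA methylation. Uhrf1 was 8.14-fold and Dnmt1 4.90-fold higher in spheroids than in monolayers at 96 h, and 2.23-fold and 2.03-fold higher at 48 h. Ezh2 followed at 96 h, 2.40-fold higher in spheroids, while Suz12 and Eed differed by 1.41-fold and 1.32-fold. Tet1 was the only gene of the 10 that fell in spheroids at 96 h, to a level 1.5-fold lower. That call rests on few counts and passed in 12 of 20 alternative analyses. In monolayers Dnmt1, Uhrf1, Ezh2 and Eed fell between 48 h and 96 h, and Tet1 and Tet2 rose. The fall of Eed was small, with a log2 change of -0.18, and passed in 11 of 21 alternative analyses.

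Between spheroids and monolayers at 96 h, 8 of the 10 genes rose and 1 fell in the quasi-likelihood test of edgeR, with p-values adjusted over all genes by the Benjamini-Hochberg method and a threshold of 0.05. This test called 73.8% of all tested genes, 37.3% as higher and 36.5% as lower. At 48 h, 6 of the 10 rose and none fell, where 57.9% of all genes were called, 31.6% as higher and 26.4% as lower. Tet1, Tet2, Tet3 and Suz12 did not pass at 48 h. The median log2 change of the 10 genes was 0.56 at 96 h and 0.33 at 48 h, beside medians over all tested genes of -0.00 and 0.05.

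With time in monolayers, 2 of the 10 rose and 4 fell, where 61.3% of all genes were called, 30.1% as higher and 31.3% as lower. With time in spheroids, 4 rose (Dnmt3a, Tet3, Ezh2 and Suz12) and none fell, where 39.8% of all genes were called, 19.3% as higher and 20.5% as lower. The medians of the 10 genes were -0.07 in monolayers and 0.20 in spheroids, beside 0.01 over all genes in each format. Scaling by total counts in place of TMM moved the median of all genes by 0.109 for format at 48 h, 0.171 for time in monolayers and -0.187 for the difference between the format changes. The share of calls that were higher was then 65.1%, 66.2% and 34.2%, beside 54.5%, 49.0% and 50.5% with TMM. The 4 comparisons share groups in pairs, so their values are given side by side and not counted as separate support. The spheroid and monolayer libraries did not overlap for 9 of the 10 genes at 96 h and 7 at 48 h, beside 78.9% and 60% of all genes. The 96 h and 48 h libraries did not overlap for 8 in monolayers and 5 in spheroids, beside 63.8% and 53.8% of all genes.

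**Figure D1:**
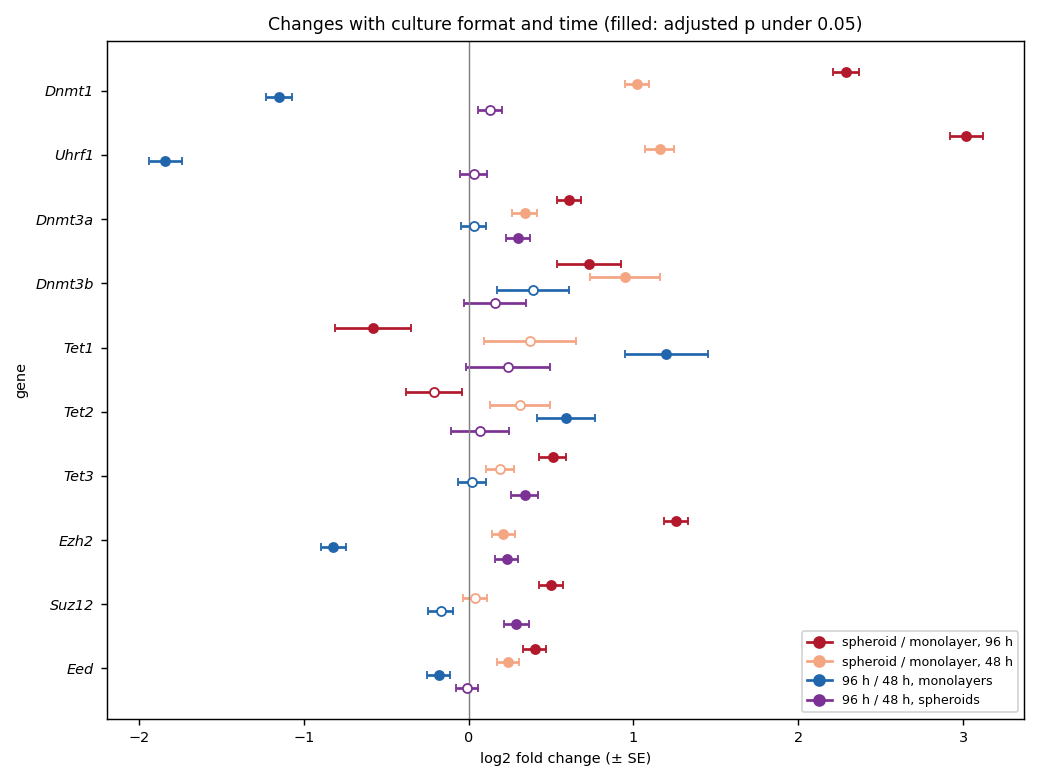
Log2 fold changes (± SE, edgeR, 3 libraries a group) of the 10 genes in the 4 comparisons, with filled points for adjusted p under 0.05. Uhrf1 reaches 3.02 and Dnmt1 2.29 between spheroids and monolayers at 96 h, and Tet1 lies at -0.58.

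Dnmt1, the maintenance methyltransferase, stood at 260, 249 and 242 CPM in 96 h spheroids and at 51.9, 47.6 and 53.4 CPM in 96 h monolayers. At 48 h it stood at 225, 233 and 230 CPM in spheroids and at 126, 113 and 101 CPM in monolayers. All 4 groups lay apart from their neighbours in the order of levels, with 96 h spheroids highest and 96 h monolayers lowest. Between formats, the log2 change was 2.29 ± 0.078 (SE) at 96 h (edgeR adjusted p = 1.02e-14) and 1.02 ± 0.0735 at 48 h (edgeR adjusted p = 8.93e-10). In monolayers Dnmt1 fell by 1.15 ± 0.0783 on the log2 scale between 48 h and 96 h (edgeR adjusted p = 7e-10). In spheroids the change with time was 0.13 ± 0.0712 and did not pass (edgeR adjusted p = 0.168).

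Uhrf1, the reader that brings Dnmt1 to half-methylated DNA, stood at 161, 154 and 146 CPM in 96 h spheroids and at 17.0, 17.7 and 21.8 CPM in 96 h monolayers. The 48 h levels were 137, 157 and 158 CPM in spheroids and 74.9, 65.7 and 62.2 CPM in monolayers. Spheroids of both times overlapped, and the 96 h monolayers lay below every other library. The log2 change between formats was 3.02 ± 0.0991 at 96 h (edgeR adjusted p = 5.96e-15) and 1.16 ± 0.0867 at 48 h (edgeR adjusted p = 1.54e-09). In monolayers Uhrf1 fell by 1.84 ± 0.102 on the log2 scale with time (edgeR adjusted p = 4.1e-11). In spheroids its change with time was 0.03 ± 0.0826 (edgeR adjusted p = 0.811).

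E2F factors are known to bind promoters of genes used in DNA replication, and their core motif was looked for in the 250 bases upstream of each gene's RefSeq starts (build GRCm38.p6). It was searched on both strands in 4 spellings, which were TTCCCGC, the variant TTGGCGC, the variant TTCGCGC and also TTGCCGC. The 10 genes have 15 such starts, of which 4 (26.7%) held the motif, beside 7.89% of 32851 promoters of the same length. These were both starts of Uhrf1, 1 of 3 starts of Dnmt1 and the start of Suz12, a gene whose changes were small. Both Dnmt1 matches lie downstream of the other annotated starts of Dnmt1, so they are upstream of only 1 of its starts. The match of the second Uhrf1 start likewise lies downstream of the first Uhrf1 start. No E2F match overlapped a match to either of the other motifs searched, the cell cycle element TTTGAA and the CCAAT box. Ezh2 held no E2F core in this window but 3 CCAAT boxes. Across both strands TTTGAA was in 26.7% of the 15 promoters and 16.0% of all, and CCAAT in 46.7% and 33.8%. A match is a description of letters, and binding was not measured.
The matches of the pair that differed most are shown as 30-base windows, or with the whole 250 bases where no other exon is annotated, and Suz12 is shown as the gene with a match but a small change. Capitals mark the E2F core, and each sequence runs 5′ to 3′ on the strand of its gene.
Dnmt1, 219 bases upstream, chr9:20952824-20952853, minus strand: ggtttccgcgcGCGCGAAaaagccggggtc
Dnmt1, 158 bases upstream, chr9:20952763-20952792, minus strand: gcaagatgccaGCGCGAAcagctccagccc
Uhrf1, first start, 48 bases upstream, chr17:56303278-56303307, plus strand: tgctttctcgcTTCCCGCcacagcgccagc
Uhrf1, second start, chr17:56304063-56304312, plus strand: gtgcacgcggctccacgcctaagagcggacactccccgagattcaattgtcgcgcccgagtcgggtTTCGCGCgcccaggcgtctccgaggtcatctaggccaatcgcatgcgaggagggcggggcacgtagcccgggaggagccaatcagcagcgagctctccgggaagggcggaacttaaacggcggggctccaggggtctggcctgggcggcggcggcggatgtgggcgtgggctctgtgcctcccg
Suz12, chr11:79992856-79993105, plus strand: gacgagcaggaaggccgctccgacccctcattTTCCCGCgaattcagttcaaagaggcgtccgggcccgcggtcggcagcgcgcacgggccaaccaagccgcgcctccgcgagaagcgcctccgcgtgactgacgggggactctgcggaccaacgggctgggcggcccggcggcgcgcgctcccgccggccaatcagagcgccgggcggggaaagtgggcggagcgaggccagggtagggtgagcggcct

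**Figure D2:**
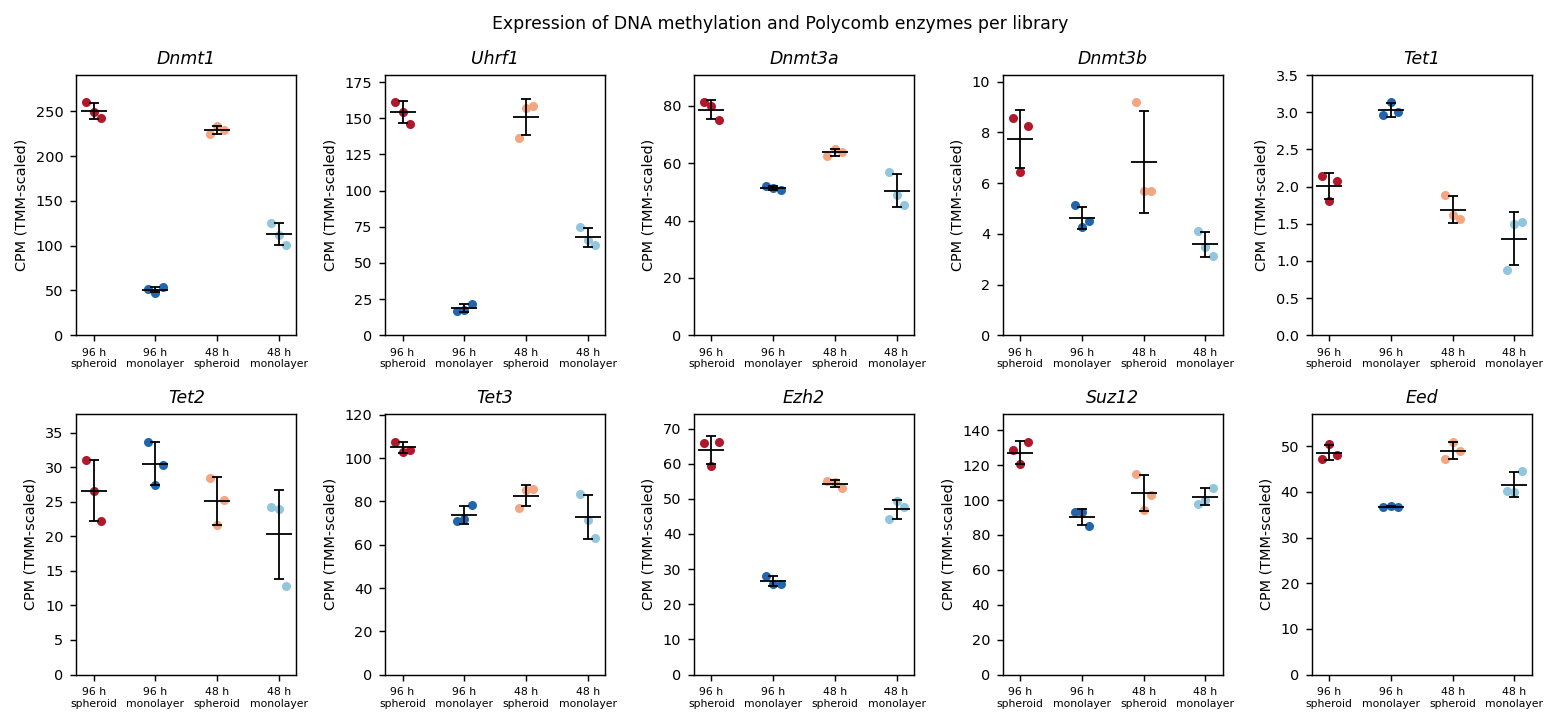
CPM of each of the 10 genes in each library (points) with the group mean ± SD (3 libraries a group), on axes that start at 0. Dnmt1 and Uhrf1 in 96 h monolayers, at means of 51.0 and 18.8 CPM, lie below all other groups, whereas Tet1 is highest there, at 3.03 CPM.

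Dnmt3a and Dnmt3b, the enzymes of new methylation, were each higher in spheroids at both times. Dnmt3a stood at 81.2, 79.8 and 74.9 CPM in 96 h spheroids and at 52.1, 51.5 and 50.5 CPM in 96 h monolayers. The 48 h libraries gave 62.5, 64.9 and 63.9 CPM in spheroids and 56.8, 48.9 and 45.5 CPM in monolayers. The monolayers of both times overlapped and lay below all spheroids. Between formats, the log2 change was 0.61 ± 0.0731 at 96 h (edgeR adjusted p = 4.87e-07) and 0.34 ± 0.0751 at 48 h (edgeR adjusted p = 0.000762). Dnmt3a rose with time in spheroids, by 0.30 ± 0.0724 on the log2 scale (edgeR adjusted p = 0.00271), and its change in monolayers was 0.03 ± 0.0758 (edgeR adjusted p = 0.754).

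Dnmt3b was much the scarcer of the pair, with 34 to 112 counts a library. It stood at 8.56, 6.42 and 8.24 CPM in 96 h spheroids and at 5.12, 4.26 and 4.50 CPM in 96 h monolayers. At 48 h it stood at 9.18, 5.67 and 5.68 CPM in spheroids and at 4.12, 3.48 and 3.13 CPM in monolayers. Spheroids of both times overlapped, with 48 h replicate 1 above the rest. The log2 change between formats was 0.73 ± 0.195 at 96 h (edgeR adjusted p = 0.00245) and 0.95 ± 0.211 at 48 h (edgeR adjusted p = 0.000787). Neither change with time passed, at 0.39 ± 0.22 in monolayers (edgeR adjusted p = 0.138) and 0.16 ± 0.187 in spheroids (edgeR adjusted p = 0.518).

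The Tet genes did not move together. Tet3 stood at 108, 103 and 104 CPM in 96 h spheroids and at 70.8, 71.9 and 78.3 CPM in 96 h monolayers. The 48 h levels were 77.0, 85.2 and 85.9 CPM in spheroids and 83.5, 71.4 and 63.3 CPM in monolayers. The 96 h spheroids lay above all other libraries, which overlapped from group to group. Tet3 rose in spheroids relative to monolayers at 96 h by 0.51 ± 0.0827 on the log2 scale (edgeR adjusted p = 2.3e-05) and with time in spheroids by 0.34 ± 0.0826 (edgeR adjusted p = 0.00298). Its change between formats at 48 h was 0.19 ± 0.0847 (edgeR adjusted p = 0.0693), and with time in monolayers it was 0.02 ± 0.0848 (edgeR adjusted p = 0.851).

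Tet2 stood at 31.0, 26.5 and 22.2 CPM in 96 h spheroids and at 33.7, 27.4 and 30.3 CPM in 96 h monolayers. The 48 h libraries gave 28.5, 21.7 and 25.3 CPM in spheroids and 24.2, 23.9 and 12.9 CPM in monolayers. Groups next to each other in level overlapped throughout, and replicate 3 of the 48 h monolayers was the lowest library. Tet2 rose with time in monolayers, by 0.59 ± 0.176 on the log2 scale (edgeR adjusted p = 0.00731). Without replicate 3 of the 48 h monolayers the rise was 0.35, the smallest over 21 alternatives, which all passed, with adjusted p from 9.08e-05 to 0.0386. Between formats, the log2 change was -0.21 ± 0.169 at 96 h (edgeR adjusted p = 0.275) and 0.31 ± 0.182 at 48 h (edgeR adjusted p = 0.15), and with time in spheroids it was 0.07 ± 0.174 (edgeR adjusted p = 0.768).

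Tet1 was close to the limit of these libraries, with 28, 22 and 28 counts in 96 h spheroids, 37, 25 and 34 in 96 h monolayers, 20, 14 and 14 in 48 h spheroids and 9, 18 and 17 in 48 h monolayers. In CPM it stood at 2.14, 1.81 and 2.08 in 96 h spheroids and at 2.96, 3.13 and 3.0 in 96 h monolayers. At 48 h it stood at 1.89, 1.62 and 1.56 CPM in spheroids and at 0.882, 1.49 and 1.52 CPM in monolayers. The 96 h monolayers lay above every other library. Tet1 rose with time in monolayers by 1.2 ± 0.25 on the log2 scale (edgeR adjusted p = 0.000476), and its change in spheroids was 0.24 ± 0.255 (edgeR adjusted p = 0.483). At 96 h the change between formats was -0.58 ± 0.228 (edgeR adjusted p = 0.0282), which passed in 12 of 20 alternative analyses, with adjusted p from 0.013 to 0.0989. It was lost under DESeq2, without a filter, on the FPKM values, and without any 1 of the 96 h monolayers or replicate 2 or 3 of the 96 h spheroids. At 48 h the change was 0.37 ± 0.279 (edgeR adjusted p = 0.285), and the order of the formats depended on the scale. FPKM, a level per gene length that the authors deposited, averaged 0.117 ± 0.0115 in 48 h spheroids and 0.137 ± 0.0306 in 48 h monolayers (SD, n = 3 each).

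Of the PRC2 core genes, Ezh2 changed most. It stood at 65.9, 59.2 and 66.2 CPM in 96 h spheroids and at 28.2, 25.7 and 25.8 CPM in 96 h monolayers. The 48 h levels were 55.2, 54.7 and 53.1 CPM in spheroids and 44.1, 49.3 and 47.6 CPM in monolayers. All 4 groups lay apart, in the same order as for Dnmt1. The log2 change between formats was 1.26 ± 0.0734 at 96 h (edgeR adjusted p = 2.28e-11). At 48 h it was 0.21 ± 0.071 (edgeR adjusted p = 0.0179), and it passed in 17 of 21 alternatives, with adjusted p from 0.000846 to 0.094. It was lost under DESeq2, in a fit of the 2 groups alone, without 48 h monolayer replicate 1 and without 48 h spheroid replicate 1. Ezh2 fell with time in monolayers by 0.82 ± 0.0755 on the log2 scale (edgeR adjusted p = 3.88e-08). In spheroids it rose by 0.23 ± 0.0689 (edgeR adjusted p = 0.0118), a call lost without 96 h spheroid replicate 3 (adjusted p over 21 alternatives from 0.00632 to 0.0543).

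Suz12, which holds the complex together, stood at 129, 120 and 133 CPM in 96 h spheroids and at 93.0, 92.9 and 85.3 CPM in 96 h monolayers. The 48 h libraries gave 115, 94.3 and 103 CPM in spheroids and 97.6, 100.2 and 107 CPM in monolayers. The formats lay apart at 96 h and overlapped at 48 h. Between formats, the log2 change was 0.50 ± 0.0738 at 96 h (edgeR adjusted p = 7.76e-06) and 0.04 ± 0.0746 at 48 h (edgeR adjusted p = 0.697). Suz12 rose with time in spheroids by 0.29 ± 0.0735 (edgeR adjusted p = 0.00412). Its change in monolayers was -0.17 ± 0.0748 (edgeR adjusted p = 0.0578), which passed in 6 of 21 alternatives.

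Eed, which binds the methylated histone tail, stood at 47.2, 50.4 and 48.0 CPM in 96 h spheroids and at 36.6, 36.8 and 36.8 CPM in 96 h monolayers. At 48 h it stood at 47.2, 51.0 and 48.9 CPM in spheroids and at 40.1, 40.0 and 44.6 CPM in monolayers. Spheroids of both times overlapped and lay above all monolayers. The log2 change between formats was 0.40 ± 0.0682 at 96 h (edgeR adjusted p = 3.57e-05) and 0.24 ± 0.0686 at 48 h (edgeR adjusted p = 0.00652), the second lost in a fit of the 2 groups alone (adjusted p over 21 alternatives from 0.000203 to 0.0551). With time Eed fell in monolayers by 0.18 ± 0.0698 on the log2 scale (edgeR adjusted p = 0.0344). That call passed in 11 of 21 alternatives and was lost without 48 h monolayer replicate 3 or any 1 of the 96 h monolayers, with adjusted p from 0.0179 to 0.961. With total-count scaling the change was -0.00535. In spheroids the change with time was -0.01 ± 0.067 (edgeR adjusted p = 0.899).

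The format difference itself differed between the times for 7 of the 10 genes, where 53.3% of all genes were called, 26.9% with a positive and 26.4% with a negative signed difference. The log2 difference between the format changes, 96 h minus 48 h, was 1.87 ± 0.132 for Uhrf1 (edgeR adjusted p = 1.46e-09). It was 1.27 ± 0.106 for Dnmt1 (edgeR adjusted p = 1.31e-08), 1.05 ± 0.102 for Ezh2 (edgeR adjusted p = 1.05e-07) and 0.46 ± 0.105 for Suz12 (edgeR adjusted p = 0.00125). These 4 passed in all 20 alternatives run for this contrast, although the Suz12 value was as low as 0.26 among them. Tet3, Dnmt3a and Tet1 passed with 0.32 ± 0.118, 0.27 ± 0.105 and -0.95 ± 0.361 (edgeR adjusted p = 0.0294, 0.0355 and 0.0333). Tet3 passed in 11 of 20 alternatives, with values from 0.12 to 0.41, Dnmt3a in 8 of 20, with values from 0.07 to 0.34, and Tet1 in 9 of the 19 that tested it. The number of genes called was 4 without 48 h spheroid replicate 1, without 96 h monolayer replicate 1 and without 96 h monolayer replicate 2. Tet2 (-0.52 ± 0.248, edgeR adjusted p = 0.0861), Eed (0.17 ± 0.0968, edgeR adjusted p = 0.16) and Dnmt3b (-0.22 ± 0.289, edgeR adjusted p = 0.539) did not pass.

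Levels of different genes can be set side by side per length, in FPKM. In 96 h spheroids Dnmt1 and Uhrf1 led with 46.6 ± 1.9 and 43.5 ± 2.51 FPKM, overlapping ranges, followed by Suz12 at 28.7 ± 1.41 FPKM (SD, n = 3 each). In 96 h monolayers Suz12 led with 21.6 ± 1.25 FPKM, Eed followed with 18.8 ± 0.262 FPKM, and Uhrf1 stood sixth with 5.69 ± 0.725 FPKM, overlapping Dnmt3a at 5.66 ± 0.14 FPKM. In 48 h spheroids Dnmt1 and Uhrf1 led with 43.5 ± 0.704 and 43.5 ± 3.56 FPKM. In 48 h monolayers the first 5 genes, Suz12, Dnmt1, Eed, Uhrf1 and Ezh2, overlapped neighbour by neighbour, from 21.5 ± 0.704 to 16.5 ± 0.776 FPKM. Tet2, Dnmt3b and Tet1 closed the order in all 4 groups, Tet1 at 0.167 ± 0.0289 FPKM in 96 h spheroids and 0.27 ± 0.04 FPKM in 96 h monolayers.

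Ratios of 2 genes within a library do not depend on library scaling, and 16 were tested for format within time and for time within format. A format difference is the mean of those at 96 h and 48 h. A time difference is the mean of those in spheroids and monolayers. An exact 2-sided permutation test over 400 regroupings was used, whose smallest possible p is 0.005, with Benjamini-Hochberg adjustment over 32 tests, of which 14 passed. The log2 ratio of Uhrf1 to its relative Uhrf2 averaged 0.79 in spheroids and -2.27 in monolayers at 96 h, and 0.83 in spheroids and -0.10 in monolayers at 48 h (format difference 1.99, exact permutation adjusted p = 0.0267). Uhrf2 itself stood at 88.7 ± 3.83 CPM in 96 h spheroids and 90.7 ± 7.04 CPM in 96 h monolayers (SD, n = 3 each). The ratio of Dnmt1 to Dnmt3a averaged 1.67 in spheroids and -0.01 in monolayers at 96 h, and 1.85 in spheroids and 1.17 in monolayers at 48 h (format difference 1.18, exact permutation adjusted p = 0.0267). Dnmt1 thus matched Dnmt3a in count in 96 h monolayers and exceeded it elsewhere. Per length Dnmt1 stood higher in 96 h monolayers, at 10.0 ± 0.661 FPKM beside 5.66 ± 0.14 FPKM for Dnmt3a (SD, n = 3 each). The ratio of Dnmt1 to Uhrf1 averaged 0.71 in spheroids and 1.44 in monolayers at 96 h, and 0.61 in spheroids and 0.74 in monolayers at 48 h (format difference -0.44, exact permutation adjusted p = 0.0291).

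Within PRC2, the format difference, a mean over both times, passed for Ezh2 to Suz12 and not for Ezh2 to Eed. By time the 2 ratios differed between formats by 0.77 and 0.86 at 96 h, and by 0.18 and -0.029 at 48 h. These were not tested apart, so passing for 1 ratio does not set Suz12 against Eed. The log2 ratio of Ezh2 to Suz12 averaged -1.0 in spheroids and -1.77 in monolayers at 96 h, and -0.93 in spheroids and -1.11 in monolayers at 48 h (format difference 0.47, exact permutation adjusted p = 0.0291). For Ezh2 to Eed it averaged 0.39 in spheroids and -0.47 in monolayers at 96 h, and 0.15 in spheroids and 0.18 in monolayers at 48 h. That format difference was 0.42 (exact permutation adjusted p = 0.118), and it passed in 0 of 15 alternatives, with adjusted p from 0.0753 to 0.25. For Ezh2 against Ezh1, the alternative catalytic subunit, it averaged 1.0 in spheroids and -0.52 in monolayers at 96 h, and 0.85 in spheroids and 0.70 in monolayers at 48 h. That format difference of 0.84 passed (exact permutation adjusted p = 0.0457) and was lost without 48 h monolayer replicate 1 or 2, 48 h spheroid replicate 1 or 96 h spheroid replicate 3 (adjusted p over 15 alternatives from 0.032 to 0.158). Ezh1 stood at 31.8 ± 2.17 CPM in 96 h spheroids and 38.2 ± 2.51 CPM in 96 h monolayers (SD, n = 3 each). Its count was the higher of the 2 in that monolayer group, but counts also depend on gene length. Per length, Ezh1 stood at 9.56 ± 0.716 FPKM and Ezh2 at 10.5 ± 0.732 FPKM there, with overlapping ranges (SD, n = 3 each). The ratio of Suz12 to Eed gave a format difference of -0.06 and a time difference of 0.16, and neither passed (exact permutation adjusted p = 0.539 and 0.146). The time difference passed for Dnmt1 to Dnmt3a (-0.68, exact permutation adjusted p = 0.0267) and for Dnmt1 to Uhrf1 (0.40, exact permutation adjusted p = 0.0369, lost without 96 h spheroid replicate 3, at 0.0533, with 0.0145 to 0.133 over 15 alternatives).

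**Figure D3:**
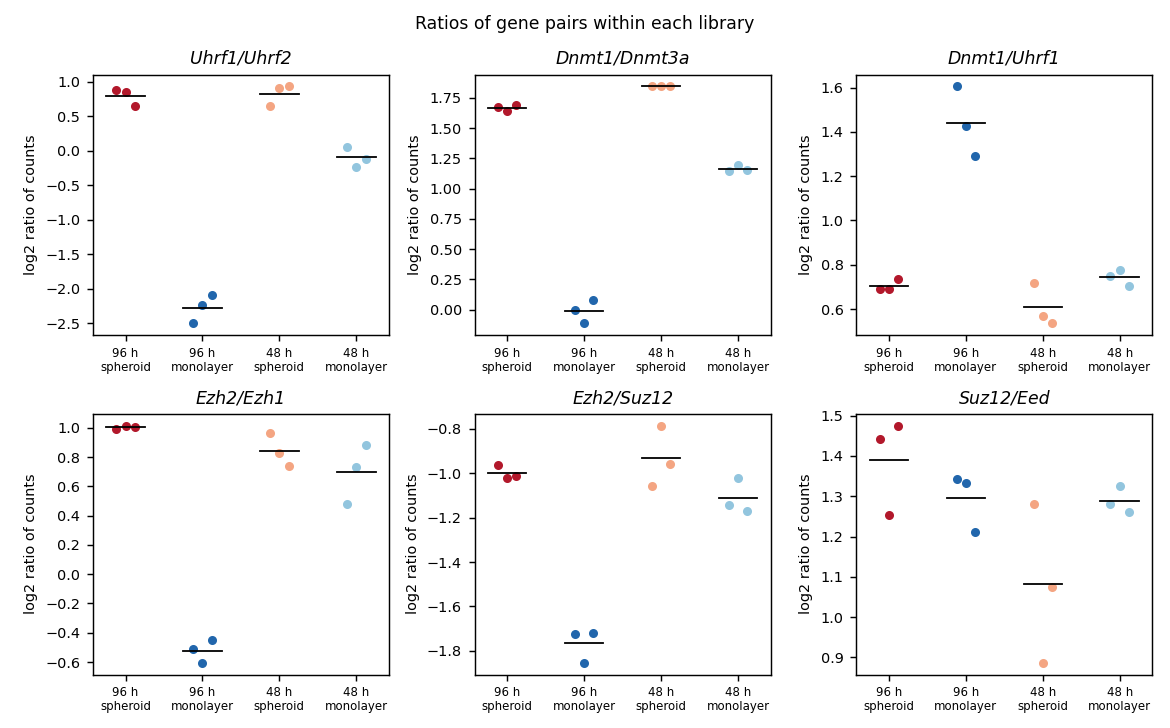
Log2 ratios of counts for 6 gene pairs in each library (points) with group means (lines). The Uhrf1 to Uhrf2, Dnmt1 to Dnmt3a, Ezh2 to Ezh1 and Ezh2 to Suz12 ratios are lowest in the 96 h monolayers, and the Dnmt1 to Uhrf1 ratio is highest there.

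Genes of DNA replication and mitosis changed in the same directions as Dnmt1, Uhrf1 and Ezh2 between formats and with time in monolayers, and their part in the result was not tested. The other members did not all do so: with time in monolayers Tet1 and Tet2 rose, and Dnmt3a and Tet3 had log2 changes of 0.03 and 0.02 that did not pass. Of 22 replication genes, 22 rose in spheroids at 96 h and 21 at 48 h (median log2 changes 2.32 and 0.90), and 21 fell with time in monolayers (median -1.49). All 14 mitosis genes rose in spheroids at both times (medians 4.42 and 0.69) and fell with time in monolayers (median -3.06). Among all tested genes, 37.3% were called higher in spheroids at 96 h and 31.6% at 48 h, and 31.3% lower with time in monolayers. Mki67, a marker of dividing cells, stood at 466 ± 48.3 CPM in 96 h spheroids and 17.7 ± 5.38 CPM in 96 h monolayers, and at 347 ± 26.2 CPM in 48 h spheroids and 141 ± 23.1 CPM in 48 h monolayers (SD, n = 3 each). In bulk RNA, fewer cells of a kind and less RNA per cell cannot be told apart.

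Against Pcna, the replication clamp, the members split. Pcna stood at 245 ± 2.44 CPM in 96 h spheroids and 67.5 ± 3.96 CPM in 96 h monolayers, and at 218 ± 8.58 CPM in 48 h spheroids and 142 ± 19.2 CPM in 48 h monolayers (SD, n = 3 each). It is 1 gene of the replication list, whose median log2 format changes were 2.32 at 96 h and 0.90 at 48 h. Those of Uhrf1 were 3.02 and 1.16, of Dnmt1 2.29 and 1.02, and of Ezh2 1.26 and 0.21. For Suz12 they were 0.50 and 0.04, and for Eed 0.40 and 0.24. A ratio to Pcna is thus not a ratio to that list. The log2 ratio to Pcna was higher in spheroids for Uhrf1, by 0.85, and for Dnmt1, by 0.42 (exact permutation adjusted p = 0.0291 for each). It was lower in spheroids for Ezh2 (-0.51), Eed (-0.93) and Suz12 (-0.98), with exact permutation adjusted p = 0.0267 for each. These are means over both times. At 96 h and 48 h the differences were 1.2 and 0.53 for Uhrf1, and 0.44 and 0.39 for Dnmt1. They were -0.6 and -0.42 for Ezh2, -1.5 and -0.39 for Eed, and -1.4 and -0.6 for Suz12. With time, the ratio to Pcna fell by 0.46 for Uhrf1 (exact permutation adjusted p = 0.0369, with 0.0145 to 0.133 over 15 alternatives) and rose by 0.51 for Suz12 (exact permutation adjusted p = 0.0291, with 0.0145 to 0.111). Both are means over the formats, which were not tested apart. The changes were -0.78 in monolayers and -0.14 in spheroids for Uhrf1, and 0.9 in monolayers and 0.13 in spheroids for Suz12. The Uhrf1 time call was lost without 48 h spheroid replicate 2 or 3, any 1 of the 96 h monolayers or 96 h spheroid replicate 3, and the Suz12 time call without 96 h spheroid replicate 1 or 3.

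The genes most like each member were found over the 12 libraries as the smallest root mean square difference between centred log2 CPM profiles. For Dnmt1 these were Timeless (0.124), Rfc5 (0.129) and Loxl4 (0.131), and for Uhrf1 they were Mcm5 (0.128), Incenp (0.136) and Lig1 (0.138). Sae1 (0.0661), Paics (0.067) and Serpinb5 (0.0827) were closest to Ezh2. Suz12 had Smc6 (0.0717) closest, Eed had Aph1a (0.0368), Dnmt3a had Trak1 (0.0734), Tet3 had 2310003C23Rik (0.0747), Tet2 had Ankhd1 (0.117), Tet1 had Khk (0.142) and Dnmt3b had E330016A19Rik (0.183). Among the 45 pairs of members, Dnmt3a and Tet3 were most alike (0.0863), followed by Suz12 and Eed (0.15). Uhrf1 and Tet1 were farthest apart (1.54), and Dnmt1 and Uhrf1 stood at 0.338. The profiles share libraries and scaling, and low-count genes carry more counting noise.

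Other genes of the same pathways were taken from lists. Of 10 tested genes for accessory or alternative PRC2 subunits, 4 rose and 2 fell in spheroids at 96 h, and 5 rose and 1 fell at 48 h. Among all tested genes, 37.3% were called higher and 36.5% lower at 96 h, and 31.6% and 26.4% at 48 h. Phf19, a Polycomb-like subunit, had the largest change, at 8.52 ± 0.928 CPM in 96 h spheroids and 1.10 ± 0.293 CPM in 96 h monolayers (SD, n = 3 each), 7.89-fold higher (edgeR adjusted p = 3.89e-09). The histone-binding subunits Rbbp7 and Rbbp4 rose 1.96-fold and 1.69-fold at 96 h. Jarid2, which helps PRC2 to bind chromatin, was 1.54-fold higher in spheroids than in monolayers at 48 h and 1.19-fold lower at 96 h. In spheroids it stood at 17.2 ± 0.522 CPM at 48 h and 17.5 ± 0.655 CPM at 96 h (SD, n = 3 each). In monolayers it rose 1.87-fold with time. With time in spheroids, where 39.8% of all genes were called, 1 of the 10 changed, Mtf2, which rose 1.21-fold.

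Of 22 genes of Polycomb repressive complex 1 (PRC1), 12 rose and 5 fell in spheroids at 96 h, and 8 rose and 6 fell at 48 h. In either direction, 73.8% of all tested genes were called at 96 h and 57.9% at 48 h. With time in spheroids 11 rose and none fell in edgeR's test, where 19.3% of all genes were called higher and 20.5% lower. The chromobox gene Cbx7 stood at 36.1 ± 1.26 CPM in 96 h spheroids and 18.5 ± 0.745 CPM in 96 h monolayers (SD, n = 3 each; edgeR adjusted p = 3.69e-08). Phc1 rose 1.49-fold and Bmi1, a ring finger subunit, 1.40-fold with time in spheroids. L3mbtl2 rose in spheroids 2.13-fold at 96 h and 1.78-fold at 48 h, and Pcgf5 fell at 48 h to a level 1.56-fold lower.

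Of 10 cofactors of DNA methylation, 7 rose and 2 fell in spheroids at 96 h, and 7 rose and 1 fell at 48 h. In either direction, 73.8% of all tested genes were called at 96 h and 57.9% at 48 h. Hells, a chromatin remodeller needed for methylation, stood at 64.7 ± 2.54 CPM in 96 h spheroids and 12.9 ± 2.8 CPM in 96 h monolayers (SD, n = 3 each; edgeR adjusted p = 9.84e-13). Cdca7, its activator, stood at 52.6 ± 5.86 CPM in 48 h spheroids and 14.6 ± 1.54 CPM in 48 h monolayers (SD, n = 3 each), 3.60-fold higher (edgeR adjusted p = 7.64e-12). Those that fell at 96 h were Zfp57, a zinc finger protein that guards methylation at imprinted genes, and Dnmt3l, a cofactor without catalytic activity. Zfp57 stood at 1.28 ± 0.275 CPM in 96 h spheroids and 5.98 ± 0.291 CPM in 96 h monolayers (SD, n = 3 each; edgeR adjusted p = 2.49e-08). Dnmt3l held 9 counts over the 96 h spheroids and 81 over the 96 h monolayers, with a log2 change of -3.39 ± 0.442 (edgeR adjusted p = 1.55e-06), and its SE rests on those few counts.

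Known targets of Polycomb silencing were taken as a further list. Of 20 listed, 14 passed the filter, and all 14 fell in spheroids at 96 h and 11 at 48 h (median log2 changes -2.59 and -1.16). A low gene that passed the filter through its monolayer level had to differ, so these counts and medians describe the list only. Cdkn2b, a cell cycle inhibitor, stood at 8.95 ± 0.947 CPM in 96 h spheroids and 69.9 ± 3.0 CPM in 96 h monolayers, and at 5.47 ± 0.854 CPM in 48 h spheroids and 46.7 ± 3.45 CPM in 48 h monolayers (SD, n = 3 each). Cdkn2a, its neighbour, stood at 1.29 ± 0.699 CPM in 96 h spheroids and 3.61 ± 0.316 CPM in 96 h monolayers (SD, n = 3 each). It held 6 to 24 counts a library in 96 h spheroids and 31 to 46 in 96 h monolayers. The homeobox gene Hoxb9 held 6 counts over the 96 h spheroids and 64 over the 96 h monolayers. Time in monolayers gave 4 targets that rose and 4 that fell (median -0.15).

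**Figure D4:**
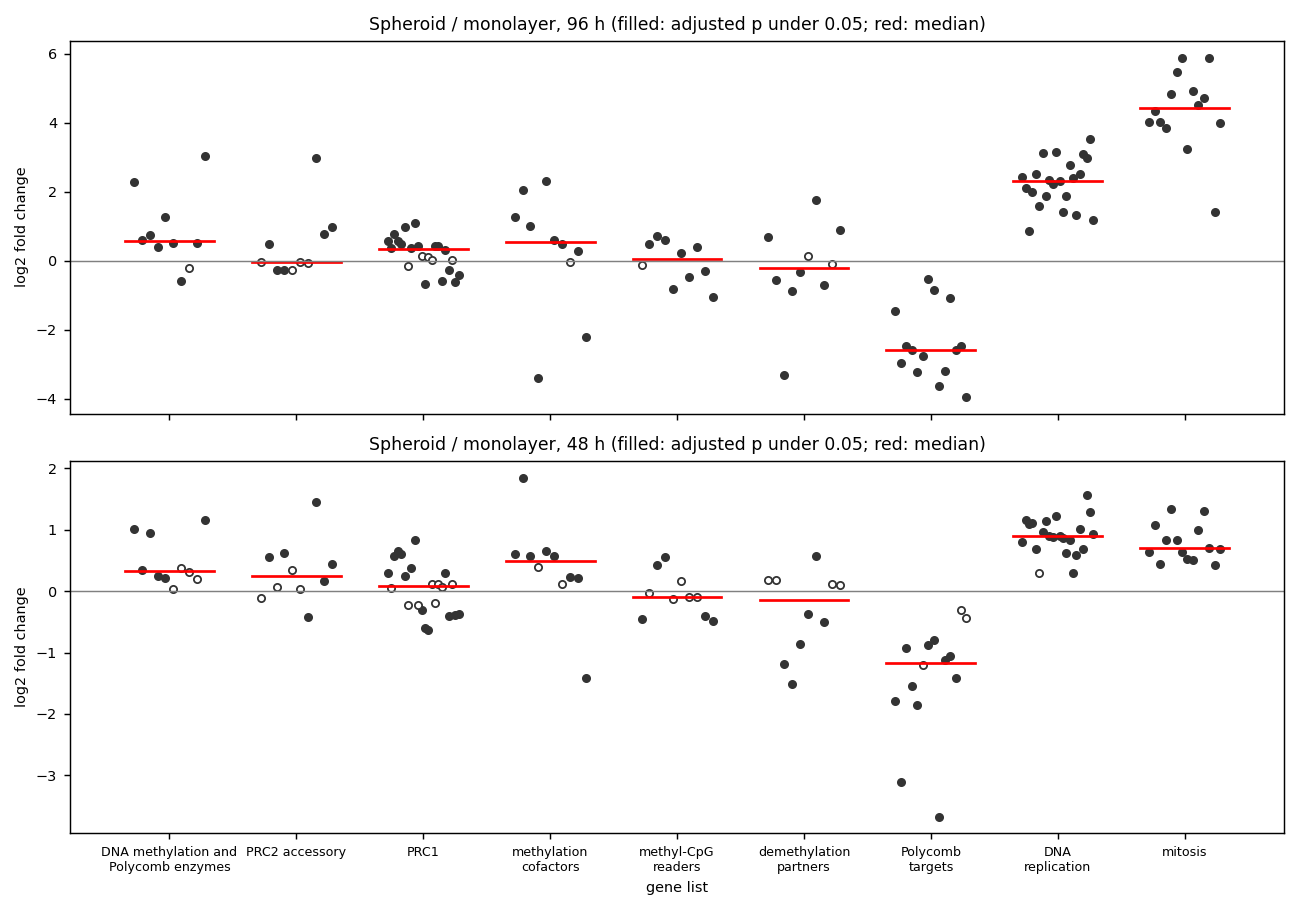
Log2 fold changes between spheroids and monolayers at 96 h (top) and 48 h (bottom) for the members and 8 gene lists, 1 point a gene, filled for edgeR adjusted p under 0.05, with list medians in red. At 96 h the median is 0.56 for the members, 2.32 for DNA replication and 4.42 for mitosis. It is -2.59 for the 14 Polycomb targets that passed the filter, some of them through their monolayer level.

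Markers of other cell types differed between the groups, and their part in the results was not tested. Their counts by gene stand beside all tested genes, of which 73.8% were called between formats at 96 h and 57.9% at 48 h. Summed over 8 fibroblast markers, none at 0, levels were 680 to 736 CPM in 96 h spheroids, 1750 to 2390 CPM in 96 h monolayers, 1990 to 2250 CPM in 48 h spheroids and 7700 to 8460 CPM in 48 h monolayers. Col1a1 and Col1a2 carried most of that sum, at 4030 ± 219 and 3060 ± 155 CPM in 48 h monolayers (SD, n = 3 each). By gene, 1 of the 8 rose and 5 fell in spheroids at 96 h, and 2 rose and 5 fell at 48 h. The 8 basal or myoepithelial markers summed to 1200 to 1230 CPM in 96 h spheroids, 355 to 475 CPM in 96 h monolayers, 1470 to 1590 CPM in 48 h spheroids and 2310 to 2650 CPM in 48 h monolayers. Acta2 led that sum in 48 h monolayers, at 1210 ± 105 CPM, and Krt14 in 48 h spheroids, at 1030 ± 43.6 CPM (SD, n = 3 each). By gene, 4 of the 8 rose and 4 fell in spheroids at each time. The 8 endothelial markers, none at 0, summed to 27.6 to 34.5 CPM in 96 h spheroids, 73.7 to 79.3 CPM in 96 h monolayers, 58.6 to 69.8 CPM in 48 h spheroids and 46.3 to 63.2 CPM in 48 h monolayers. Vwf alone made up 22.5 ± 2.88 CPM of it in 96 h spheroids (SD, n = 3). By gene, 1 of the 8 rose and 7 fell in spheroids at 96 h, and 2 rose and 3 fell at 48 h. The 9 immune markers summed to 486 to 570 CPM in 96 h spheroids, 104 to 117 CPM in 96 h monolayers, 290 to 323 CPM in 48 h spheroids and 76.5 to 95.2 CPM in 48 h monolayers. Cd14 alone made up 497 ± 41.9 CPM of that sum in 96 h spheroids (SD, n = 3), and Cd3e was at 0 in 96 h monolayers. Taken singly, 2 of the 5 tested rose and 2 fell in spheroids at 96 h, and 2 rose and none fell at 48 h. Those that fell at 96 h were Cd68, to a level 4.97-fold lower, and Lyz2, to a level 4.44-fold lower. The 8 adipocyte markers summed to 132 to 143 CPM in 96 h spheroids, 141 to 144 CPM in 96 h monolayers, 559 to 599 CPM in 48 h spheroids and 147 to 166 CPM in 48 h monolayers. Fabp4 and Lpl carried most of that sum in 48 h spheroids, at 284 ± 16.7 and 280 ± 9.35 CPM (SD, n = 3 each). Taken singly, 2 of the 4 tested rose and 1 fell in spheroids at 96 h, and 4 rose and none fell at 48 h. Lep was at 0 in all groups but the 96 h spheroids, Plin1 in both monolayer groups, Adipoq and Retn in 48 h monolayers and Cidec in 96 h monolayers.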

How the data were processed

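Messenger RNA of 12 libraries was analysed from tables that the authors deposited: RSEM expected counts rounded to whole numbers, log2 values of FPKM plus 1, and gene symbols of mm9 UCSC known genes. Per the submitters' processing notes, bcl2fastq 2.15.0, Bowtie 1.0.1, RSEM 1.2.30 and mm9 were used. No source used here gives the options or strand setting. FPKM printed are those log2 values turned back.

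The tests on counts used edgeR 4.0.16 in R 4.3.3: filterByExpr (minimum count 10, minimum total 15), TMM (factors 0.923 to 1.07) and 1 quasi-likelihood fit of 12 libraries with group as its term (8 residual degrees of freedom). The SE is the log2 change over the square root of F. Calls are 2-sided with Benjamini-Hochberg adjustment per contrast at 0.05, tested on simulated data. Ratios used counts plus 0.5. Alternatives included DESeq2 1.42.0, limma 3.58.1 on log2 FPKM, other scalings and filters, each library left out, and a replicate block.

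The members and lists were chosen with earlier results of these data known. Besides the members, genes were named as the up to 3 largest called changes without overlap per list and contrast, plus a few fixed genes; Lep, Plin1 and similar genes at 0 were named after their values were seen. Promoter positions and strand overlaps come from GRCm38 annotation, another build than the mm9 of the counts, and no mm9 coordinates are given.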

Additional observations from a re-analysis of the deposited data

Results flagged for a closer look

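For 7 of the 10 genes the change between spheroids and monolayers at 96 h differed from that at 48 h in the edgeR test of the difference itself. The same test called 53.3% of all tested genes. Each value is the log2 change at 96 h minus that at 48 h. It was 1.87 for Uhrf1, 1.27 for Dnmt1, 1.05 for Ezh2 and 0.46 for Suz12, each past the threshold in all 20 alternatives. It was 0.32 for Tet3, with changes of 0.51 at 96 h and 0.19 at 48 h, and was lost without 48 h monolayer replicate 1, 48 h spheroid replicate 1, 96 h monolayer replicate 1 or 2, or 96 h spheroid replicate 1. It was 0.27 for Dnmt3a, with changes of 0.61 and 0.34, and was lost without 48 h monolayer replicate 1, 48 h spheroid replicate 1 or 3, any 1 of the 96 h monolayers, or 96 h spheroid replicate 1 or 2. It was -0.95 for Tet1, with changes of -0.58 and 0.37, and was lost without 48 h monolayer replicate 1, 48 h spheroid replicate 1, any 1 of the 96 h monolayers, or 96 h spheroid replicate 2 or 3. The Tet3 and Dnmt3a calls also depended on scaling, with values of 0.14 and 0.09 under total counts. Both were lost there, with upper-quartile scaling, with a stricter filter and with limma on log2 FPKM. The Tet1 call was also lost under DESeq2, without a filter and with limma on log2 FPKM.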

How the results depend on the processing

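Counts of all genes called stayed within 1.5 times the reported count in all 104 alternatives, and counts of the 10 genes in 99 of 104. The exceptions were in the difference between the format changes, with 4 genes in place of 7 under a stricter filter, which tests fewer genes and drops Tet1, and 4 with limma on log2 FPKM, where the cause was not tested. Leaving out 1 library gave 4 to 8. Of 1035 values of single genes, 938 kept direction and side, 55 lost the call, 19 gained one and 23 changed sign, and of 480 ratios these were 439, 27, 12 and 2.

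The signs that changed belong to values that did not pass in the analysis reported. Of these, Suz12 with time in monolayers passed in 6 of 21 alternatives, Dnmt3a with time in monolayers in 1 (total counts) and the Tet1 to Tet2 format ratio in 1 of 15 (FPKM). Format at 48 h gave -0.03 for Tet1 on FPKM, and for Suz12 -0.00343 with RLE factors, -0.00342 with DESeq2, -0.00241 in a fit of the 2 groups and -0.04 to 0.1 with 1 library left out. Time in monolayers gave for Suz12 0.00322 with total counts and 0.00729 on FPKM, for Tet3 -0.000979 with RLE, -0.00148 with DESeq2 and -0.07 to 0.12 with 1 library left out, and for Dnmt3a -0.04 to 0.11. Time in spheroids gave 0.00076 for Eed without a filter, and with 1 library left out -0.04 to 0.02 for Eed, -0.04 to 0.07 for Uhrf1 and -0.05 to 0.2 for Tet2. The difference between the format changes gave for Eed -0.02 with total counts and -0.03 on FPKM, and for Dnmt3b -0.33 to 0.07 with 1 library left out. The ratio Tet1 to Tet2 (format) spanned -0.36 to 0.05 and Dnmt1 to Pcna (time) -0.15 to 0.03. The cause of these shifts was not tested.

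The labels do not say whether equal replicate numbers mark shared material. Deviations of the 18 same-numbered pairs correlated between -0.11 and 0.0881, and those of the 36 other pairs between -0.117 and 0.118. With 3 libraries a group, such values cannot decide whether material was shared. With the replicate block, 6, 9, 6 and 4 of the 10 genes were called for format at 48 h, format at 96 h, time in monolayers and time in spheroids, and 8 for the difference between the format changes, where Tet2 passed. Under the block, 0 of the 14 ratios passed, since 64 regroupings allow no p below 0.03125. Leaving out 1 library gave 10 to 16 ratios past the threshold. Depth limits Tet1 most, with 9 to 37 counts a library.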

Other observations

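Enzymes and adaptors that act with the Tet proteins did not move as a group. Of 10 tested, 3 rose and 5 fell in spheroids at 96 h, and 1 rose and 5 fell at 48 h. In either direction, 73.8% of all tested genes were called at 96 h and 57.9% at 48 h. Gadd45a, a stress-induced protein linked to demethylation, stood at 18.3 ± 0.93 CPM in 96 h spheroids and 181 ± 6.08 CPM in 96 h monolayers, and at 32.9 ± 0.805 CPM in 48 h spheroids and 74.4 ± 10.6 CPM in 48 h monolayers (SD, n = 3 each). Tdg, the glycosylase that removes oxidised methylcytosine, was 1.85-fold higher in spheroids at 96 h (edgeR adjusted p = 1.12e-09). Idh2, the mitochondrial enzyme that makes the co-substrate of Tet proteins, was 3.36-fold higher (edgeR adjusted p = 1.83e-13).

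Listed readers of methylated DNA and their relatives gave 5 of 10 that rose and 4 that fell in spheroids at 96 h. Over all tested genes, 37.3% were called higher and 36.5% lower. Mbd3 stood at 92.4 ± 3.05 CPM in 96 h spheroids and 57.2 ± 5.62 CPM in 96 h monolayers, and Zbtb4 at 39.1 ± 1.03 CPM in 96 h spheroids and 81.8 ± 1.82 CPM in 96 h monolayers (SD, n = 3 each). Of 6 enzymes that oppose Polycomb marks, 2 rose and 1 fell at 96 h, and Kdm6a, a histone demethylase, rose with time by 1.35-fold in spheroids and 1.26-fold in monolayers. Germline genes known to be silenced by promoter methylation were near the floor in all groups. The 14 genes summed to 1.40 to 1.76 CPM in 96 h spheroids, 3.70 to 3.88 CPM in 96 h monolayers, 1.23 to 1.97 CPM in 48 h spheroids and 1.91 to 2.35 CPM in 48 h monolayers. Of these, 1 passed the filter, Brdt, at 1.14 ± 0.0599 CPM in 96 h spheroids and 2.12 ± 0.162 CPM in 96 h monolayers (SD, n = 3 each; edgeR adjusted p = 0.0047).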
